A study of Mus musculus with 5 samples.

Results

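The genes described here are those of S phase, in which DNA is copied, and of G2 and mitosis (G2/M), in which it is checked and divided. The list named 54 genes, 25 of S phase and 29 of G2/M, and a gene was measured where a probe set of the array carried its symbol. That held for 51 of them, 24 of S phase and 27 of G2/M, among 19505 named genes in all, while Mcm7, Ccnb1 and Foxm1 were not analysed here. Each of the 51 had 1 probe set (called a probe below), so no choice between probes was needed.

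The tumours were subcutaneous melanomas grown in wildtype C57BL/6 mice aged 10 weeks from luc+GFP+ B16.F10 cells, a transplantable melanoma of this strain marked with luciferase and GFP. Anti-PD-1, which takes a brake off T cells, was injected intraperitoneally into all 5 mice on days 1, 4 and 8. In addition, 2 mice (replicates 3 and 4 of the vehicle group) were given corn oil with 5% DMSO by mouth, and 3 mice (replicates 1, 2 and 3) were given RG7112, a small molecule that keeps MDM2 from binding p53. Oral dosing was on every 2nd day for 6 days, starting 2 days after injection as the labels put it. Its exact window, and so the time from the last dose to harvest, is unclear from the labels. Tumours were taken on day 13, and whole-tumour RNA of melanoma and infiltrating immune cells was put on 1 array per mouse. No group lacked anti-PD-1, so the data compare RG7112 with vehicle on that shared treatment only, and in such mixtures fewer cells of a type and less RNA per cell cannot be told apart.

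Cells enter S phase when cyclin-dependent kinases release E2F factors from the retinoblastoma family, and E2F then drives genes for loading the replicative helicase, for DNA polymerases and for nucleotides. Genes of G2/M come later, through the factors B-Myb and FOXM1, and encode Cdk1 with its cyclins, mitotic kinases, kinetochore proteins and spindle motors. MDM2 marks p53 for degradation, and p53, through the CDK inhibitor p21 (Cdkn1a), can hold both sets of genes down by way of the repressive DREAM complex. In tumours their transcripts are widely used as a measure of how many cells are cycling.

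The letters that these factors read were looked for in RefSeq promoter windows of assembly GRCm38.p6, which run from 250 bases before to 50 bases after a gene's start and were found for 44 of the 51 genes. The searches, on both strands, were for TTTGAA, the core of the cell cycle genes homology region (CHR) that DREAM and B-Myb complexes use, for CCAAT, the box bound by NF-Y, and for the E2F forms TTTCGCGC, TTTGGCGC and TTTCCCGC. TTTGAA was present in 18 of 23 G2/M genes (78.3%) and in 3 of 21 S genes (14.3%), against 17.8% of the 15691 genes that had both a window and a named probe. An E2F form was present in 10 of 21 S genes (47.6%) and in 1 of 23 G2/M genes (4.35%), against 2.91% of those genes. CCAAT was present in 78.3% of the G2/M genes, 52.4% of the S genes and 42.2% of those genes. A gene with several windows counted once if any window held the letters, which applied to 5 members, and a match is a string of letters, not a shown binding site.

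The 6 promoters printed below are examples, 3 of G2/M genes and 3 of S genes with E2F letters. Each is given as the 250 bases before the start, 5′ to 3′ on the gene's strand, with the searched letters in capitals. They were chosen after their letters and values were seen. They are Cdk1 at chr10:69352913-69353162 (minus strand), Cdc20 at chr4:118437344-118437593 (minus strand), Top2a at chr11:99024190-99024439 (minus strand), Cdc6 at chr11:98907901-98908150 (plus strand), Mcm6 at chr1:128359706-128359955 (minus strand) and Rfc3 at chr5:151651209-151651458 (minus strand). Cdk1, the 1 G2/M gene of 23 with an E2F form, held both kinds of letters. Its TTTGAA strings started 71 and 15 bases before the start, and its TTTCGCGC started 131 bases before it. Cdc20 held TTTGAA 18 bases before its start between a pair of CCAAT boxes, and Top2a held it on both strands among 6 CCAAT boxes.
Cdk1: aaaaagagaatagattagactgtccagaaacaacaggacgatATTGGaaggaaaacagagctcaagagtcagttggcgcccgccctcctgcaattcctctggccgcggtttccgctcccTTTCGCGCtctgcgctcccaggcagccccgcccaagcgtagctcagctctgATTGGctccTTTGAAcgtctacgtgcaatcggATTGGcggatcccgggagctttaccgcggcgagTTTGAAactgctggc
Cdc20: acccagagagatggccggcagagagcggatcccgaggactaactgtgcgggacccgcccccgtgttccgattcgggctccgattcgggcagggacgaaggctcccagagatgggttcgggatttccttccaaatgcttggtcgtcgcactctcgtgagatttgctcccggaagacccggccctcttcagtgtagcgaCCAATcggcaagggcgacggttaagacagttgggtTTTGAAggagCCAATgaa
Top2a: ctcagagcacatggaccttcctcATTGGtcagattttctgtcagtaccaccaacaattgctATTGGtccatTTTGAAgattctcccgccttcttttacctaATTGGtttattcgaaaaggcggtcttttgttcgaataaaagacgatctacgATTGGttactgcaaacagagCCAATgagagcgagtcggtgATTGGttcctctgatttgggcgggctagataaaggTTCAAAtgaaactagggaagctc
Cdc6: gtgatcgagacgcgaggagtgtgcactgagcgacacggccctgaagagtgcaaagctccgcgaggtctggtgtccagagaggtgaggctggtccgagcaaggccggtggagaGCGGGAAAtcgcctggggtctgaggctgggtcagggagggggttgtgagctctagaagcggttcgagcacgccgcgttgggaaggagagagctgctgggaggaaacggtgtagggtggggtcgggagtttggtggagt
Mcm6: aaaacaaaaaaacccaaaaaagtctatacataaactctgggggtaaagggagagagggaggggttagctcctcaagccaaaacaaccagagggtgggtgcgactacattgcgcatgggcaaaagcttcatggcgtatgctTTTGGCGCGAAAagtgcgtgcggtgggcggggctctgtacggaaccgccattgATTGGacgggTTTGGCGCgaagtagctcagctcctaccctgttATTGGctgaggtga
Rfc3: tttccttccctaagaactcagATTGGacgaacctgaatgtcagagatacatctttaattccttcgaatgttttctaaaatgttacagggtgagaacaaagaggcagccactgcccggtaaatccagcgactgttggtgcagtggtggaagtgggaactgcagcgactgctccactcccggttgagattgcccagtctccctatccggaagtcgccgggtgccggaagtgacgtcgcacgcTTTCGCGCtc
In these stretches Cdc6, Mcm6 and Rfc3 held E2F letters and no TTTGAA. Mcm6 held 3 of the E2F letter strings, a pair of them overlapping on opposite strands from 110 to 99 bases before its start.

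**Figure D1:**
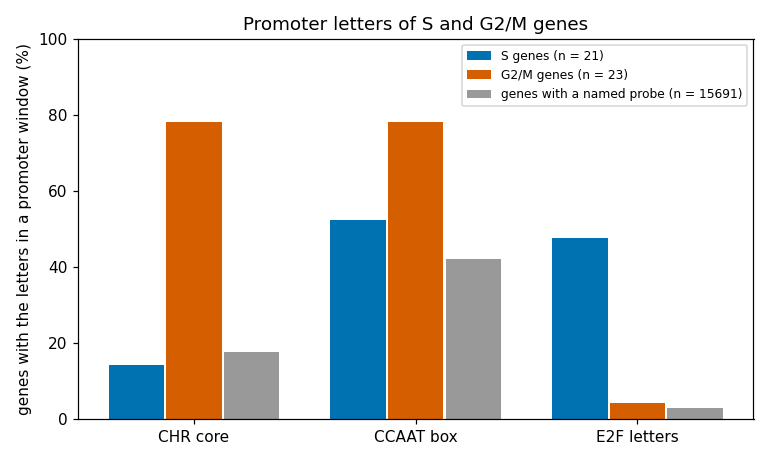
Share of genes (%, bars from 0) with the CHR core TTTGAA, the CCAAT box or an E2F form in a RefSeq promoter window, for 21 S genes, 23 G2/M genes and the 15691 genes with a window and a named probe. TTTGAA stands at 78.3% in G2/M genes and E2F forms at 47.6% in S genes, against 17.8% and 2.91% in the grey bars.

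Addition of RG7112 to anti-PD-1 left the S and G2/M genes with small differences that did not pass the test. Of the 51 genes 0 were called higher and 0 lower by limma at an adjusted p under 0.05 over all 22203 probes, where 1.42% of all probes were called higher, 0.0315% lower and 1.45% in either direction. The smallest adjusted p of a member was 0.441, for Ccne2. The median member differed by 0.14 on the log2 scale (RG7112 minus vehicle), against -0.03 over all probes, and single genes ran from -0.20 to 0.52. Of the 51, 38 had a positive difference and 13 a negative one, while 44.8% of all probes had a positive difference. Of the 51 genes 0 lay below the 40th percentile of mean signal over all probes, a log2 value of 4.99 (the signal cutoff below). Of the 13322 probes above this cutoff, 49.5% had a positive difference, and their median difference was -0.003.

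The intervals show what size of change the 5 arrays leave room for. Every 95% interval of the 51 differences from limma lay between -0.65 and 0.96, so for 0 of 51 genes did the interval reach a doubling or a halving. At an unadjusted p under 0.05, 3 members were higher (Pole, Ccne2 and Rfc5) and 0 lower, where 4.83% of all probes were higher and 4.06% lower by that rule. The RG7112 and vehicle tumours did not overlap in 12 members, 11 of them higher and 1 lower with RG7112, where 10.8% of all probes did not overlap in the higher direction and 14.0% in the lower. The 11 were Mcm4, Mcm6, Pole, Pold1, Rfc3, Ccne2, Bub1b, Cenpf, Kif11, Kif23 and Ect2, and the 1 was Ccne1. Of the probes above the signal cutoff, 13.6% did not overlap in the higher direction and 11.9% in the lower. After quantile normalization 8 members were higher without overlap (15.7%), against 11.0% of all probes.

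**Figure D2:**
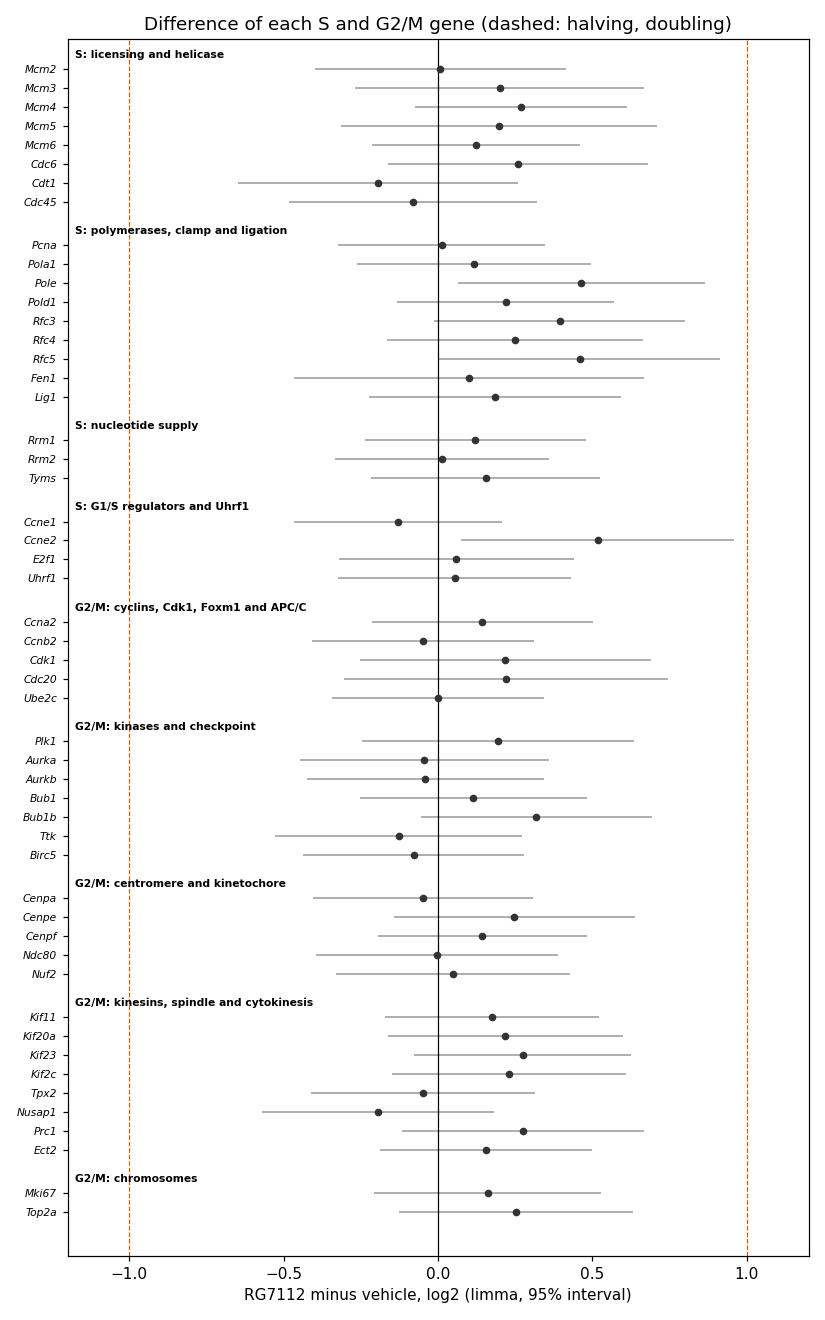
Difference of each of the 51 S and G2/M genes between 3 RG7112 and 2 vehicle tumours (log2, points) with its 95% interval from limma (bars), grouped by role; dashed lines mark a halving and a doubling. Every interval stays between -0.65 and 0.96, and 38 of 51 points lie right of 0.

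Mean levels were computed for each phase. The mean log2 signal of the 24 S genes was 8.48 and 8.58 in vehicle replicates 3 and 4, and 8.73, 8.52 and 8.81 in RG7112 replicates 1, 2 and 3. RG7112 replicate 2 lay between the vehicle tumours, and the other two RG7112 tumours lay above both. The group means were 8.53 ± 0.06 (SD, n = 2) and 8.69 ± 0.15 (SD, n = 3), a difference of 0.16 ± 0.12 (SE). For the 27 G2/M genes the tumours stood at 8.87 and 9.02 with vehicle and at 9.14, 8.88 and 9.11 with RG7112, a difference of 0.10 ± 0.12 (SE). The same tumour, RG7112 replicate 2, again lay between the vehicle tumours, and both differences were close to the spread between tumours.

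Marker levels of the tumour cells and of other cell types also differed between the tumours, and their part in the levels above was not tested. The 14 melanocyte lineage markers, which mark the B16 cells, had a mean level of 10.96 to 11.04 with vehicle and 11.08 to 11.13 with RG7112, a difference of 0.12 ± 0.04 (SE), with 0 of 14 called. Taken relative to that level, the median member difference was 0.03, and the difference was 0.04 for S genes and -0.02 for G2/M genes. Both were small against the SE of 0.12 of each phase's own level difference, so the negative sign of the latter shows no direction. No SE was computed for the relative differences. The 13 macrophage and monocyte markers stood at 6.25 to 6.59 with vehicle and 7.59 to 7.96 with RG7112, with 9 of 13 called higher. T cell markers stood at 4.77 to 4.84 and 5.25 to 5.36 (1 of 9 called), endothelial markers at 6.75 to 6.77 and 7.21 to 7.31 (1 of 8 called), and the fibroblast level differed by 0.24 ± 0.22 (SE; 0 of 8 called). NK cell, B cell, neutrophil, keratinocyte and muscle markers had 0 genes called. The mean levels of the first 4 of these lists lay below the signal cutoff of 4.99 in every tumour, so a lack of calls there says little. All 6 NK cell markers had positive differences and all 4 B cell markers negative ones. The 5 muscle markers had a mean level of 5.81 and 6.23 with vehicle and 6.83, 6.45 and 5.18 in RG7112 replicates 1, 2 and 3.

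**Figure D3:**
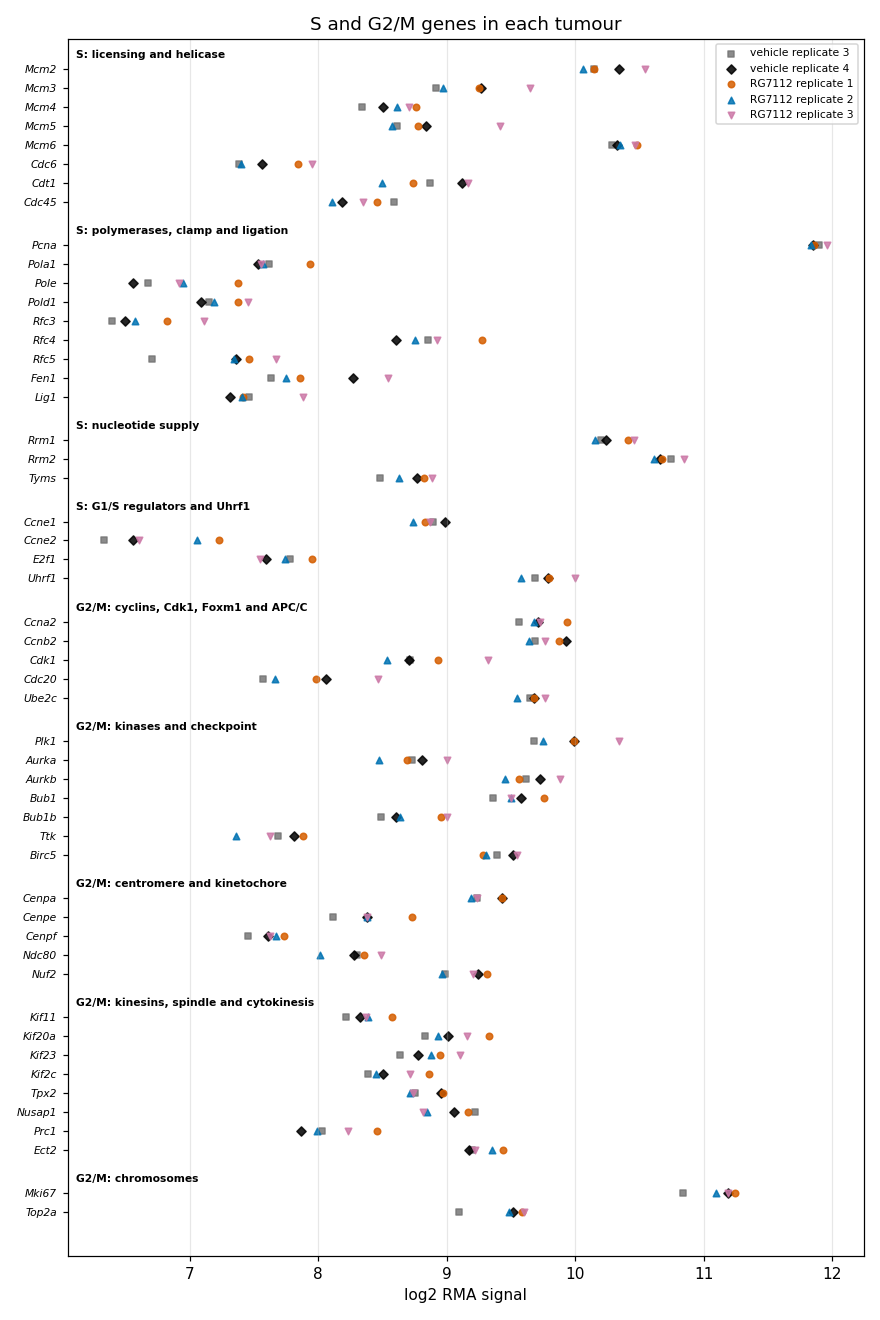
log2 RMA signal of each of the 51 genes in the 5 tumours, 1 point per tumour, grouped by role; grey squares and black diamonds are vehicle tumours, and coloured points are RG7112 tumours. In most rows an orange or pink point (RG7112 replicate 1 or 3) lies furthest right, while the blue triangle (RG7112 replicate 2) lies below both vehicle points in 21 rows, between them in 19 and above both in 11.

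Licensing and helicase genes load and form the MCM ring that unwinds DNA. Of the 8 measured, 0 were called, 6 had positive differences and the median was 0.16. Mcm5, a subunit of the ring, read 8.61 and 8.84 with vehicle and 8.78, 8.57 and 9.42 with RG7112. RG7112 replicate 3 was the highest and replicate 2 the lowest of all 5 tumours, so the groups overlapped, and the difference was 0.20 ± 0.23 (SE; limma adjusted p = 0.889). Mcm3 followed the same order among RG7112 tumours, at 9.25, 8.97 and 9.65 against 8.92 and 9.27 with vehicle. Mcm4 and Mcm6 were tighter. Mcm4 read 8.34 and 8.51 with vehicle and 8.76, 8.62 and 8.70 with RG7112, and the groups did not overlap (0.27 ± 0.16, limma adjusted p = 0.693). Mcm6 read 10.29 and 10.33 against 10.48, 10.35 and 10.46, again without overlap but with a difference of only 0.12 ± 0.15.

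The loaders differed in sign. Cdc6, which recruits the ring to origins and whose E2F letters are printed above, read 7.38 and 7.56 with vehicle and 7.84, 7.40 and 7.95 with RG7112 (0.26 ± 0.19). Its partner Cdt1 read 8.87 and 9.12 against 8.74, 8.496 and 9.17 (-0.20 ± 0.21, limma adjusted p = 0.874). In both genes RG7112 replicate 2 was the lowest RG7112 tumour, and in Cdt1 it was the lowest of all 5. Cdc45, which activates the helicase, was highest in vehicle replicate 3, at 8.59, and lowest in RG7112 replicate 2, at 8.11. Mcm2 differed by 0.01 ± 0.18.

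Among the 9 genes of polymerases, the sliding clamp and ligation, all 9 differences were positive, with a median of 0.22, and 0 were called. Pole, the catalytic subunit of the leading-strand polymerase, read 6.67 and 6.56 with vehicle and 7.37, 6.94 and 6.92 with RG7112. All 3 RG7112 tumours lay above both vehicle tumours, and the difference was 0.46 ± 0.18 (SE), or 1.38-fold, with a 95% interval from 0.06 to 0.86 (limma adjusted p = 0.448). Rfc3, a subunit of the clamp loader, read 6.39 and 6.49 against 6.83, 6.57 and 7.11, also without overlap (0.39 ± 0.18, limma adjusted p = 0.587). Its loader partner Rfc5 differed by 0.46 ± 0.21, but with vehicle tumours at 6.71 and 7.36, so that RG7112 replicate 2, at 7.34, fell below vehicle replicate 4. Pold1, of the lagging-strand polymerase, differed by 0.22 ± 0.16 without overlap, and Rfc4 by 0.25 ± 0.19.

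The largest spread within groups among the members, a pooled SD of 0.44, was that of Fen1, the nuclease that trims Okazaki fragments. It read 7.63 and 8.27 with vehicle and 7.86, 7.75 and 8.55 with RG7112, a range of 0.80 within the RG7112 group against a group difference of 0.10 ± 0.26. Lig1, the ligase that joins the fragments, stood at 7.88 in RG7112 replicate 3 and between 7.31 and 7.46 in the other 4 tumours. Pcna, the clamp itself, was nearly flat, from 11.83 to 11.96 (0.01 ± 0.15). Pcna is also a p53 target gene.

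The 3 genes of nucleotide supply had differences of 0.12 ± 0.16 for Rrm1, 0.01 ± 0.16 for Rrm2 and 0.16 ± 0.17 for Tyms. Rrm1 and Rrm2 form ribonucleotide reductase and Tyms makes thymidylate. In all 3, RG7112 replicate 3 was the highest and RG7112 replicate 2 the lowest RG7112 tumour.

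Among the regulators of S phase entry, the E-type cyclins that activate Cdk2 had differences of opposite sign, and neither passed the test. Ccne2 read 6.33 and 6.56 with vehicle and 7.23, 7.05 and 6.60 with RG7112, with RG7112 replicate 3 only just above the vehicle tumours. Its difference of 0.52 ± 0.20 (SE), or 1.43-fold, was the largest of all members, with a 95% interval from 0.07 to 0.96 (limma adjusted p = 0.441). Ccne1 read 8.89 and 8.99 against 8.83, 8.73 and 8.87, the only member with all RG7112 tumours below the vehicle tumours, by -0.13 ± 0.15 (limma adjusted p = 0.893). E2f1 differed by 0.06 ± 0.17, and Uhrf1, which carries DNA methylation through replication, by 0.05 ± 0.17.

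Of the 5 measured cyclins, Cdk1 and activators of the anaphase-promoting complex, 0 were called and the median difference was 0.14. Cdk1, the mitotic kinase, read 8.72 and 8.71 in the vehicle tumours, which agreed closely, and 8.93, 8.54 and 9.32 in the RG7112 tumours, which did not. RG7112 replicate 3 was highest and replicate 2 lowest of all 5, and the group difference was 0.22 ± 0.21 (limma adjusted p = 0.860). Cdc20, which activates the complex at anaphase, read 7.57 and 8.06 against 7.98, 7.66 and 8.47 (0.22 ± 0.24, and -0.023 without vehicle replicate 3). Ccna2, the cyclin of S and G2, differed by 0.14 ± 0.16, Ccnb2, a mitotic cyclin, by -0.05 ± 0.16, and Ube2c, the complex's ubiquitin-conjugating enzyme, by 0.00 ± 0.16.

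The 7 mitotic kinases and checkpoint genes had a median difference of -0.04, with 3 positive and 0 called. Plk1, a kinase of mitotic entry and spindle assembly, read 9.68 and 9.99 with vehicle and 9.99, 9.75 and 10.34 with RG7112 (0.19 ± 0.20). RG7112 replicate 3 stood above the other 4 tumours and vehicle replicate 3 was the lowest. Aurka and Aurkb, the Aurora kinases of spindle poles and centromeres, differed by -0.05 ± 0.18 and -0.04 ± 0.17, each highest in RG7112 replicate 3 and lowest in RG7112 replicate 2. Bub1b, the checkpoint kinase BubR1, read 8.49 and 8.61 against 8.95, 8.64 and 9.01 without overlap, a difference of 0.32 ± 0.17 (limma adjusted p = 0.660). Bub1 differed by 0.11 ± 0.17, Ttk by -0.13 ± 0.18 and Birc5, the survivin subunit of the Aurora B complex, by -0.08 ± 0.16.

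The 5 centromere and kinetochore genes, which attach chromosomes to the spindle, had a median difference of 0.05 and 0 calls. Cenpe, a kinetochore motor, read 8.12 and 8.38 with vehicle and 8.73, 8.38 and 8.38 with RG7112, so RG7112 replicate 1 lay above and vehicle replicate 3 below the other 3 tumours (0.25 ± 0.18). Cenpf differed by 0.14 ± 0.15, and Nuf2 and Ndc80, partners in the microtubule-binding Ndc80 complex, by 0.05 ± 0.17 and 0.00 ± 0.18. The centromeric histone Cenpa differed by -0.05 ± 0.16.

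Of the 8 kinesins and genes of the spindle and cytokinesis, 6 had positive differences, 0 were called and the median was 0.20. Kif23, a motor of the central spindle, read 8.63 and 8.78 with vehicle and 8.95, 8.88 and 9.10 with RG7112. The groups did not overlap, and the difference was 0.27 ± 0.16 (limma adjusted p = 0.695). Prc1, which bundles central spindle microtubules, differed by 0.28 ± 0.18, Kif2c by 0.23 ± 0.17, Kif20a by 0.22 ± 0.17 and Kif11, the motor that separates the poles, by 0.17 ± 0.16. Nusap1, a spindle protein, read 9.22 and 9.06 against 9.16, 8.85 and 8.81, the most negative G2/M difference (-0.20 ± 0.17, limma adjusted p = 0.835). In 7 of these 8 genes RG7112 replicate 1 was the highest RG7112 tumour, where 36.0% of all probes and 40.7% of those above the signal cutoff were.

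Mki67, the antigen of Ki-67 staining, read 10.84 and 11.19 with vehicle and 11.24, 11.09 and 11.19 with RG7112. Vehicle replicate 3 was the low tumour, the other 4 lay within a narrow band, and the difference of 0.16 ± 0.17 was -0.01 without that tumour. Top2a, the topoisomerase that untangles chromosomes, read 9.09 and 9.51 against 9.59, 9.49 and 9.60 (0.25 ± 0.17). It had the same low vehicle tumour, and its RG7112 tumours spanned only 0.11.

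Differences between tumours of 1 group were as large as those between groups, and they were shared across the members. Among the RG7112 tumours, replicate 2 was the lowest in 40 of 51 genes, 20 of 24 S genes and 20 of 27 G2/M genes, where 34.2% of all probes were lowest in that tumour. It was the highest in 0 of 51, where 28.6% of all probes were. Of the probes above the signal cutoff, 38.7% were lowest and 23.9% highest in RG7112 replicate 2. Its median member lay 0.22 below the mean of the other two RG7112 tumours and 0.04 below the vehicle mean, above which it stood in 25 of 51 genes. RG7112 replicates 1 and 3 were each above the vehicle mean in 42 of 51 genes, with a median of 0.20 in each. The fibroblast markers were also lowest in RG7112 replicate 2 among the RG7112 tumours, in 8 of 8 genes. Their level relative to the vehicle mean was 0.39, -0.10 and 0.43 in RG7112 replicates 1, 2 and 3, and the part of this in the members' pattern was not tested. Over all 5 tumours, RG7112 replicate 3 held the highest value in 26 genes and replicate 1 in 21, against 20.1% and 24.4% of all probes, and each vehicle tumour held it in 2.

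The 2 high tumours were high in partly different genes on the deposited scale. In S genes RG7112 replicate 3 was the highest RG7112 tumour in 16 of 24, and in G2/M genes RG7112 replicate 1 was the highest in 16 of 27, where 35.4% and 36.0% of all probes were highest in these tumours. Among probes above the signal cutoff these shares were 35.4% and 40.7%. Replicate 3 exceeded replicate 1 by a median of 0.09 in S genes and fell below it with a median of -0.11 in G2/M genes, against 0.00 over all probes. The genes furthest above replicate 1 in replicate 3 were Fen1 (0.69), Mcm5 (0.64), Cdc20 (0.48), Lig1 (0.46), Cdt1 (0.43), Mcm2 and Mcm3 (0.40 each), Cdk1 (0.39) and Plk1 (0.36). Those furthest below were Ccne2 (-0.63), Pole (-0.46), E2f1 (-0.40), Pola1 (-0.38), Cenpe (-0.36), Rfc4 (-0.35) and Nusap1 (-0.35), so both phases had members on each side. These genes were picked by their values. Of the 11 members with E2F letters, 9 were highest among RG7112 tumours in replicate 3 and 2 in replicate 1, and of the 33 without them 17 and 16 were. Of the 21 with TTTGAA, 11 and 10 were, and of the 23 without it 15 and 8 were. Of the 11 with E2F letters 10 were S genes, and of the 21 with TTTGAA 18 were G2/M genes. Letters and phase thus overlapped, and the counts were not compared within a phase, so they cannot tell the letters from the phase.

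**Figure D4:**
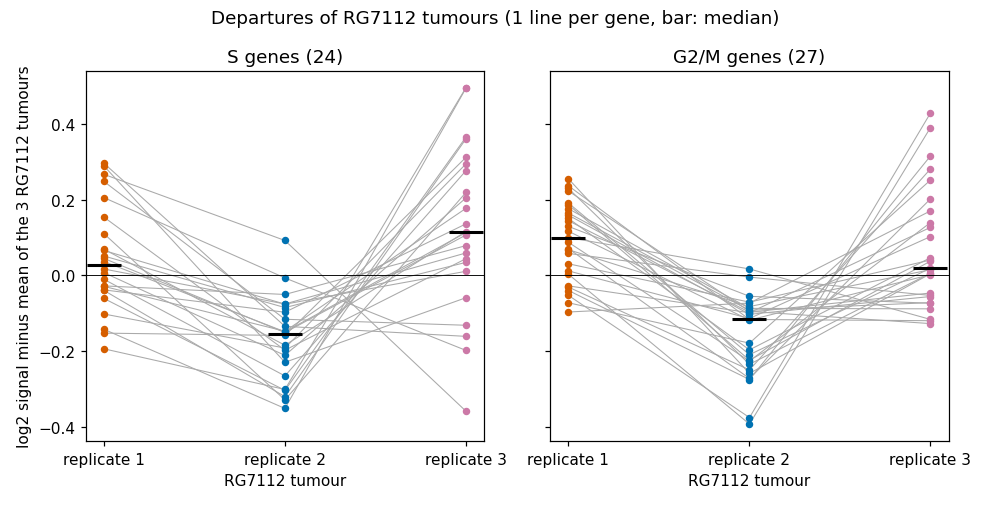
log2 signal of each gene in RG7112 replicates 1, 2 and 3 minus the mean of these 3 tumours, with 1 line per gene and black bars at the medians, for 24 S genes (left) and 27 G2/M genes (right). Replicate 2 is the lowest point of 20 lines in each panel; 16 of 24 S lines peak in replicate 3 and 16 of 27 G2/M lines in replicate 1, the latter 14 after quantile and 13 after cyclic loess normalization.

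The vehicle tumours were also offset from each other. Replicate 4 lay above replicate 3 in 37 of 51 members, 15 of 24 S genes and 22 of 27 G2/M genes, with a median offset of 0.12, where 50.8% of all probes lay that way. Of the probes above the signal cutoff 52.3% did. The largest offsets were in Rfc5, Fen1, Cdc20 and Top2a, and Cdc45 went the other way. The median pooled SD within groups was 0.18 over the members and 0.18 over all probes. By phase it was 0.22 over the S genes and 0.17 over the G2/M genes, against 0.18 over the probes above the signal cutoff. RG7112 replicate 1 had the widest array distribution, with quartiles of 4.02 and 7.85 against 4.07 to 4.13 and 7.72 to 7.76 in the other arrays. After quantile normalization, which removes that difference, RG7112 replicate 2 was the lowest RG7112 tumour in 29 of 51 members, against 31.2% of all probes, and replicate 3 the highest in 18 of 24 S genes. Replicate 1 was then the highest in 14 of 27 G2/M genes, and in 13 after cyclic loess normalization. The order of replicates 1 and 3 in the G2/M level turned, from 9.14 and 9.11 as deposited to 9.05 and 9.11 after quantile and 9.05 and 9.10 after cyclic loess normalization.

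Further genes of the cycle were described in the same way. Of 40 further S phase genes 0 were called, 33 had positive differences and the median was 0.16. Wdhd1, a replisome adaptor, read 6.82 and 6.80 with vehicle and 7.54, 7.39 and 7.16 with RG7112 (0.55 ± 0.17, limma adjusted p = 0.229), and the remodeller Hells and the polymerase subunit Pole2 differed by 0.46 ± 0.18 and 0.44 ± 0.18. The groups did not overlap in any of these 3 genes, and in 16 of the 40 RG7112 was higher without overlap and in 0 lower, where 10.8% and 14.0% of all probes were. Of 42 further G2/M genes 0 were called, 32 had positive differences, 6 were higher and 1 lower without overlap, and the median was 0.06. Among the probes above the signal cutoff, 13.6% were higher and 11.9% lower without overlap. Cdc25b, a phosphatase that activates Cdk1, differed by -0.40 ± 0.17, while the spindle protein Dlgap5 and the abscission factor Cep55 differed by 0.40 ± 0.16 and 0.41 ± 0.18.

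Upstream of both phases, 0 of 10 CDK inhibitors and pocket proteins, 0 of 6 D cyclins and G1 kinases and 0 of 15 E2F and MuvB factors were called, with medians of -0.02, 0.05 and 0.09. Cdkn1a, which encodes p21, read 10.92 and 10.70 with vehicle and 10.93, 10.55 and 10.62 with RG7112, a difference of -0.11 ± 0.17 (limma adjusted p = 0.924). The groups overlapped, with RG7112 replicate 1 beside vehicle replicate 3. Cdc25a, the phosphatase of S phase entry, differed by 0.41 ± 0.17, E2f3 by 0.37 ± 0.18, the pocket protein Rbl1 by 0.32 ± 0.22, Rb1 by 0.17 ± 0.17 and Mybl2, which encodes B-Myb, by 0.28 ± 0.18. Ccnd2, a D cyclin, differed by -0.21 ± 0.15.

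The p53 target genes, of which 18 were measured, had 0 called and a median of -0.02. Without overlap 1 of them was higher and 3 were lower with RG7112, where 10.8% and 14.0% of all probes were. Mdm2, itself a p53 target, read 9.28 and 9.26 with vehicle and 9.97, 9.65 and 9.20 with RG7112, above the vehicle tumours in replicates 1 and 2 and below them in replicate 3 (0.34 ± 0.21, limma adjusted p = 0.738). Plk2, a kinase induced by p53, read 7.02 and 7.07 against 7.86, 7.61 and 7.58 without overlap (0.64 ± 0.16, limma adjusted p = 0.114). Sesn2 differed by -0.49 ± 0.18 and Ccng1 by -0.03 ± 0.21. RG7112 replicate 1 was the highest RG7112 tumour in 14 of these 18 genes, where 36.0% of all probes and 40.7% of those above the signal cutoff were. The list's mean level was 7.31 in that tumour, 7.03 in replicate 2 and 6.96 in replicate 3, against 7.06 and 7.08 with vehicle. The order of the tumours in this list was not examined under other normalizations.

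**Figure D5:**
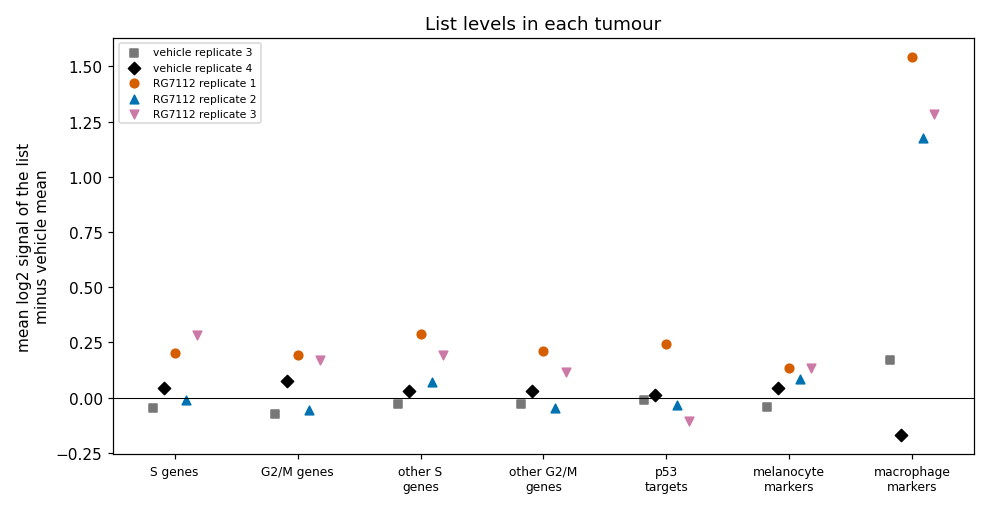
Mean log2 signal of 7 gene lists in each tumour, minus the list's mean over the 2 vehicle tumours (points, 1 per tumour). RG7112 replicates 1 and 3 stand above the vehicle tumours in the S and G2/M lists and replicate 2 does not, while all 3 RG7112 tumours stand well above vehicle in macrophage markers.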

How the data were processed

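Whole-tumour RNA was measured on Affymetrix Clariom S mouse arrays, 1 per mouse. The deposited values are log2 signals, made by the authors with oligo and RMA per the submitters' processing notes; their versions and options are not named there. The table held 22203 probes, of which 19572 had 1 gene symbol in the platform annotation, and no sample column was left out. With limma 3.58.1 under R 4.3.3 (lmFit, eBayes), RG7112 minus vehicle was estimated from 2 vehicle and 3 RG7112 tumours, with Benjamini-Hochberg adjustment over all probes, a call at adjusted p under 0.05, 3 residual and 7.92 prior degrees of freedom. The script was tested on simulated data. List levels are per-tumour means of log2 values, with no test. With 10 ways to split the arrays, a permutation test of 1 value could not go below 0.1. Full statistics were planned for up to 4 members per role with the smallest unadjusted p, up to 3 genes per context list, and Cdkn1a, Mdm2, Ccng1, Rb1 and Mybl2. Some of these stand above without an adjusted p, and Mcm5 and Nusap1 were given one outside that rule. Any other member could be named. The members and lists were chosen with earlier results of these data known. Scan dates were not used here.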

Additional observations from a re-analysis of the deposited data

How the results depend on the processing

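The call of 0 members held in limma under each of the 12 alternatives that refit or leave out a tumour and at adjusted p under 0.10. The smallest adjusted p of a member ran from 0.153 (without RG7112 replicate 3) to 0.916 (without vehicle replicate 3). The median member difference stayed positive, from 0.03 relative to the melanocyte lineage to 0.20 without RG7112 replicate 2. Leaving out each tumour in turn gave 0.09 to 0.24 for the S level and 0.03 to 0.18 for the G2/M level. Quantile and cyclic loess normalization gave 0.11 and 0.14 for the S level and 0.05 and 0.08 for the G2/M level. RG7112 replicate 2 became the highest RG7112 tumour in 2 members under each of these normalizations, and 2 members were lower without overlap under quantile normalization. The members higher without overlap went from 11 to 8 under quantile and 12 under cyclic loess normalization, against 11.0% and 12.8% of all probes. Calls over all probes, 322 with all tumours, ran from 65 to 273 when 1 tumour was left out, with 152 without vehicle replicate 3 and 65 without vehicle replicate 4. The median of the D cyclins and G1 kinases ran from -0.051 to 0.15, and that of the CDK inhibitors and pocket proteins from -0.071 to 0.039. No paired analysis was made, because the labels do not pair vehicle with RG7112 mice.

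Among 55 named genes, 19 of 770 alternative values changed sign, in 10 genes, and none became a call. The largest of these differences with all tumours was that of Cdc20, 0.22, which was -0.023 without vehicle replicate 3. Rrm2 was -0.0037 with array weights, -0.0071 after quantile and -0.0042 after cyclic loess normalization, and E2f1 was -9.8e-05 after quantile normalization. With 1 tumour left out, Rrm2 ran from -0.055 to 0.062, E2f1 from -0.044 to 0.16, Uhrf1 from -0.048 to 0.16, Cdc20 from -0.023 to 0.46, Nuf2 from -0.079 to 0.17 and Mki67 from -0.015 to 0.34. Ccnb2 ran from -0.17 to 0.070, Cenpa from -0.14 to 0.045, Ttk from -0.26 to 0.0019 and Ccng1 from -0.21 to 0.15. The arrays give no read depth, and their number limits the precision.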
